A study of Mus musculus with 6 samples.

Results

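The miR-29 family was followed in small RNA libraries of adult mouse brain. Its rows were all those of the deposited read tables whose name begins with miR-29a, miR-29b or miR-29c, on either arm of the hairpin. This gave 7 of 1055 mature miRNAs: the guide strands miR-29a, miR-29b and miR-29c and the star arms miR-29a*, miR-29b-1*, miR-29b-2* and miR-29c*. Each library was made from the whole brain of 1 female mouse aged 5.5 months. There were 3 wild-type and 3 Adar2-/- libraries from siblings on a 129SV background. Both genotypes were homozygous for the pre-edited Gria2 allele (Gria2 R/R), which rescues the early death of Adar2-deficient mice, so the wild-type brains were not wild-type at Gria2. Adar2 encodes an adenosine deaminase that edits adenosine to inosine in double-stranded RNA, and the series asked how its loss affects the abundance and sequence of mature miRNAs. Adar2 is absent from the whole animal, so direct and secondary effects on brain miRNAs cannot be told apart. In whole brain, fewer cells of a type and less RNA per cell cannot be told apart either.

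A miRNA hairpin is cut by Drosha and Dicer into a short duplex. One strand, the guide, is loaded into an Argonaute protein and pairs through its seed with target mRNAs, while the other, the star strand, is mostly degraded. The miR-29 guides are known for repressing mRNAs of collagens and other matrix proteins, of the DNA methyltransferases Dnmt3a and Dnmt3b and of proapoptotic BH3-only proteins. In mouse brain the family is known to accumulate as neurons mature.

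The mature sequences show what the 7 rows share and what separates them. They are given 5′ to 3′ as in the RefSeq table for GRCm38.p6, with the seed (bases 2 to 8) in capitals, and all 7 rows were matched.
miR-29a: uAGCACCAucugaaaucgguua
miR-29b: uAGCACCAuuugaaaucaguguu
miR-29c: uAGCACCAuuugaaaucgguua
miR-29a*: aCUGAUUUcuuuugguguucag
miR-29c*: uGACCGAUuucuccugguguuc
miR-29b-1*: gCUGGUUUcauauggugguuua
miR-29b-2*: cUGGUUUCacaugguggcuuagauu
The 3 guides have the same seed, AGCACCA, and it was found in no other of the 1679 mouse mature miRNAs of the table (0.179% with the guides). The 4 star arms each have another seed. Of these 4, only UGGUUUC of miR-29b-2* was found in another miRNA, miR-6338. miR-29c and miR-29a differ by 1 of 22 bases, U10C, counted from 1 at the 5′ end of miR-29c. miR-29b differs from miR-29c at 3 aligned bases and from miR-29a at 4, and it is 1 base longer than both. It ends in AGUGUU, a hexamer known from human miR-29b to direct the miRNA to the nucleus, and 2 of the 1679 mature miRNAs (0.119%) end with these letters. The star arms are less alike. miR-29b-1* and miR-29b-2* differ at 2 of 21 aligned bases and miR-29a* and miR-29c* at 3 of 20. A read with a changed base can therefore match the wrong guide most easily between miR-29a and miR-29c.

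The family comes from 4 hairpins in 2 clusters. The hairpins are given on their own strand with both mature arms in capitals, to show which arms mark a cluster.
Mir29a: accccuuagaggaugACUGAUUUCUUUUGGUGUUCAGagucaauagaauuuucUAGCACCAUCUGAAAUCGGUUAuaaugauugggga
Mir29b-1: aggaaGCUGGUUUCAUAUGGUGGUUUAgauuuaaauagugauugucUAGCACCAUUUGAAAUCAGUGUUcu
Mir29b-2: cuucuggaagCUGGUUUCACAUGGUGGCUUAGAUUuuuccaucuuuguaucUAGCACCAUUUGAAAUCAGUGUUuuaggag
Mir29c: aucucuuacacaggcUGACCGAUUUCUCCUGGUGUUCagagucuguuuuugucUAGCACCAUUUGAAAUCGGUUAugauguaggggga
By exact search on NCBIM37, Mir29a lies at chr6:31012660-31012747 and Mir29b-1 at chr6:31013023-31013093, both on the minus strand and 275 bp apart. No other annotated gene overlaps them. Mir29b-2 lies at chr1:196863234-196863314 and Mir29c at chr1:196863741-196863828, both on the plus strand and 426 bp apart. Both lie within an exon of the long noncoding RNA gene A330023F24Rik, which is annotated on the same strand. Mature miR-29b is identical from Mir29b-1 and Mir29b-2, so its reads cannot be assigned to a cluster. The reads that mark the 29a/29b-1 cluster are miR-29a, miR-29a* and miR-29b-1*, and those that mark the 29b-2/29c cluster are miR-29c, miR-29c* and miR-29b-2*.

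The wild-type libraries held between 12449633 and 23471819 mapped miRNA reads and the Adar2-/- libraries between 18645810 and 23935544. Abundance is given as RPM, the reads of a miRNA divided by all mapped miRNA reads of the library and multiplied by 1000000. Of the 1055 miRNAs, 399 reached 100 reads or more in each of the 6 libraries and were tested, among them 6 of the 7 miR-29 rows. The exception, miR-29b-1*, had fewer than 100 reads in 2 libraries. The brain-enriched miRNAs of neurons were all detected, 7 of 7, with summed levels of 41006 to 75463 RPM in wild type and 47745 to 77434 RPM in Adar2-/-. Of the markers of other cells, 24 of 24 had reads as well. The summed level of the sensory and pineal cluster miR-182, miR-183 and miR-96 was 108156 to 155374 RPM in wild type, and 186903, 89664 and 19159 RPM in Adar2-/- replicates 1, 2 and 3. It was lowest in the Adar2-/- replicate 3 library, the one in which miR-29a, miR-29b and miR-29c were highest. RPM values are shares of all mapped miRNA reads, so the RPM of this cluster and of other miRNAs are not independent. The part of this in the miR-29 levels was not tested. The 2 oligodendrocyte miRNAs summed to 284 to 573 RPM in wild type and to 376 to 708 RPM in Adar2-/-, again highest in that library, as were the neuronal sum and the sum of 5 choroid plexus and ciliated cell miRNAs (1191 to 1833 RPM in wild type and 1414 to 2045 RPM in Adar2-/-). The genotypes also overlapped in the summed levels of 4 vascular miRNAs (52641 to 80298 and 50321 to 61659 RPM), 7 blood and immune miRNAs (1882 to 4035 and 2558 to 3408 RPM) and 3 pituitary and endocrine miRNAs (1289 to 7459 and 1557 to 4714 RPM). The pituitary sum was highest in wild-type replicate 1, the library with the most miR-29b-1* and miR-29b-2*. The members of that sum differed in direction. miR-375 had a log2 fold change of Adar2-/- over wild type of -4.09 (SE 1.32, adjusted p = 0.988, edgeR). For miR-7a and miR-7b it was 0.42 and 0.19. The part of these cells in the results below was not tested.

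The family made up 2.45%, 1.59% and 2.30% of mapped miRNA reads in wild-type replicates 1, 2 and 3 and 1.95%, 2.94% and 4.90% in Adar2-/- replicates 1, 2 and 3. The highest share was thus in Adar2-/- replicate 3 and the lowest in wild-type replicate 2, and the genotypes overlapped. Counting error was small beside these gaps, with 95% Wilson intervals no wider than ±0.00866 percentage points. In RPM the family summed to 21147 ± 4638 in wild type and to 32614 ± 15032 in Adar2-/- (SD, n = 3 each), a ratio of 1.54. The difference gave p = 0.3 by a two-sided exact permutation test, where 3 against 3 cannot go below 0.1 and so cannot pass 0.05. The difference of 11467 RPM rested largely on Adar2-/- replicate 3, without which it was 3272 RPM, and it was 18040 RPM without Adar2-/- replicate 1.

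miR-29a was the main member, with 79.2% to 84.6% of the family's reads in each library. It had 20751, 12559 and 19288 RPM in wild-type replicates 1, 2 and 3 and 16013, 23845 and 40489 RPM in Adar2-/- replicates 1, 2 and 3. Adar2-/- replicate 1 lay inside the wild-type range and the other Adar2-/- libraries above it. By read number it ranked from 12 to 17 among all miRNAs in the wild-type libraries, and 14, 12 and 5 in the Adar2-/- libraries. Wild type averaged 17533 ± 4369 RPM and Adar2-/- 26782 ± 12500 RPM (SD, n = 3 each). In edgeR's quasi-likelihood test over the 399 miRNAs the log2 fold change was 0.61 (SE 0.40, adjusted p = 0.988). Without Adar2-/- replicate 3 it was 0.18, and without both libraries of replicate 1 it was 1.01 (adjusted p = 0.128, edgeR, the lowest of the 16 alternative settings, which reached 0.998).

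miR-29c showed the widest range of the 3 guides. It had 1814, 1325 and 1308 RPM in wild-type replicates 1, 2 and 3 and 1480, 2855 and 5465 RPM in Adar2-/- replicates 1, 2 and 3. The Adar2-/- libraries thus spread over 3.69-fold and the wild-type libraries over 1.39-fold, and Adar2-/- replicate 1 lay among the wild-type values. Wild type averaged 1482 ± 287 RPM and Adar2-/- 3267 ± 2025 RPM (SD, n = 3 each), a ratio of 2.20. The log2 fold change was 1.14 (SE 0.46, adjusted p = 0.988, edgeR). Counted with its sign, only 2 of the 399 tested miRNAs had a higher one. Larger decreases, such as that of miR-375 (-4.09), are outside this count. The unadjusted p of miR-29c, 0.0319 (edgeR), ranked 6 among the 399. The adjusted p was above the threshold of 0.05. It fell below it in 1 of 16 alternative settings, when both libraries of replicate 1 were left out (log2 fold change 1.66, adjusted p = 0.0476, edgeR). In the other settings it reached up to 0.998. In the setting without replicate 1, 18 of 399 miRNAs (4.51%) passed, all higher in Adar2-/-, and miR-29c was the one miR-29 row among them. The values of all miRNAs lay higher in that setting, with a median log2 fold change of 0.17 against 0.00 in the main fit. At an unadjusted p under 0.05 (edgeR), 79 of 87 miRNAs were higher in Adar2-/- there. The replicate 1 columns are headed s7 and s8 and those of both other replicates s1 and s2. What these headings stand for is not given in the sources used here, and their part in the result was not tested. Without Adar2-/- replicate 3 the log2 fold change was 0.55.

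miR-29b varied less than the other guides. It had 1564, 1640 and 2059 RPM in wild-type replicates 1, 2 and 3 and 1625, 2242 and 2675 RPM in Adar2-/- replicates 1, 2 and 3. Within each replicate number the Adar2-/- library had the higher value, by 1.04-, 1.37- and 1.299-fold, yet the genotypes overlapped. Wild type averaged 1754 ± 266 RPM and Adar2-/- 2180 ± 528 RPM (SD, n = 3 each). The log2 fold change of 0.31 (SE 0.33) did not pass the test (adjusted p = 0.988, edgeR). It was 0.14 without Adar2-/- replicate 3 and 0.49 without Adar2-/- replicate 1.

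**Figure D1:**
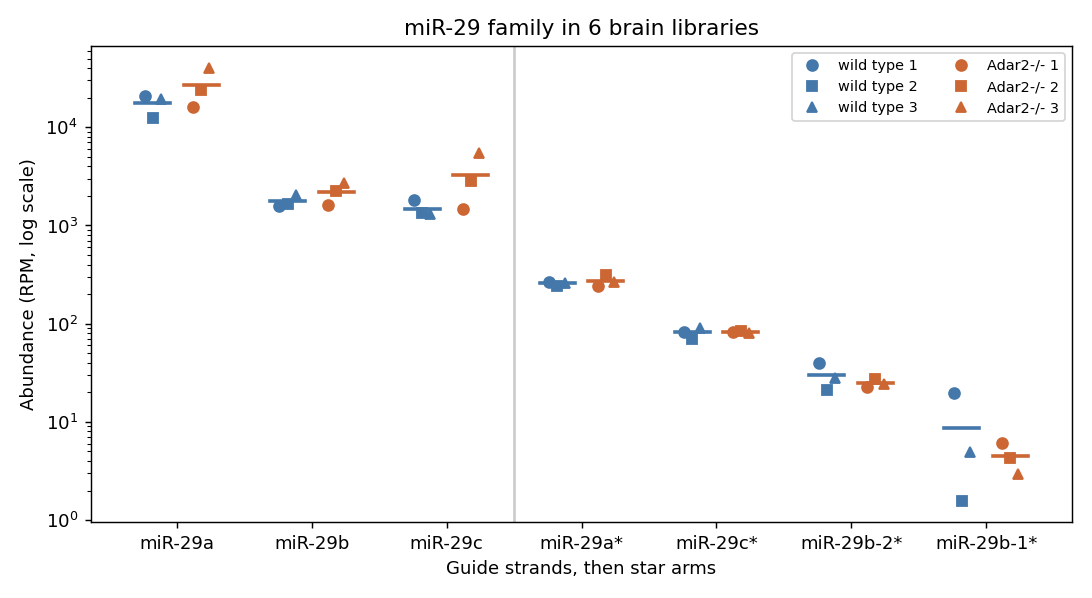
Level of each miR-29 row in RPM (log axis) in the 6 libraries, wild type in blue and Adar2-/- in orange, with the symbol giving the replicate number and the bar the mean of 3 libraries. miR-29a and miR-29c are highest in Adar2-/- replicate 3 (40489 and 5465 RPM), while miR-29a* and miR-29c* stay within 1.296-fold over all 6 libraries.

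The star arms of Mir29a and Mir29c varied little. miR-29a* had 267, 245 and 262 RPM in wild type and 241, 311 and 266 RPM in Adar2-/-. miR-29c* had 83.1, 70.2 and 91.0 RPM in wild type and 82.7, 84.6 and 80.9 RPM in Adar2-/-. Over the 6 libraries miR-29a* and miR-29c* spanned 1.29-fold and 1.296-fold, against 3.22-fold for miR-29a and 4.18-fold for miR-29c. In Adar2-/- replicate 3, where both guides were highest, both star arms were within the wild-type range. The log2 fold change was 0.08 (SE 0.29) for miR-29a* and 0.02 (SE 0.29) for miR-29c* (adjusted p = 0.989 for both, edgeR). The sign of these values turned in several settings: for miR-29a* without Adar2-/- replicate 2 or both libraries of replicate 2, and for miR-29c* with totals that leave out the 5 most abundant miRNAs, with DESeq2 and without wild-type replicate 2 or both libraries of replicate 2.

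The star arms of the miR-29b hairpins were the rarest rows. miR-29b-2* had 39.9, 21.1 and 28.0 RPM in wild-type replicates 1, 2 and 3 and 22.7, 27.6 and 24.6 RPM in Adar2-/- replicates 1, 2 and 3. Wild-type replicate 1 lay above all other libraries, and without it the log2 fold change of -0.25 (SE 0.34, adjusted p = 0.988, edgeR) became 0.02. miR-29b-1* rested on 243, 36 and 117 reads in wild type and 113, 102 and 71 reads in Adar2-/-. These correspond to 19.5, 1.58 and 4.98 RPM and to 6.06, 4.32 and 2.97 RPM. The wild-type libraries alone spanned 12.4-fold and enclosed all Adar2-/- values. With the minimum set to 10 reads, its log2 fold change was -0.95 (SE 0.71, adjusted p = 0.982, edgeR). This sign rested on wild-type replicate 1, without which the value was 0.43.

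In read number the family formed an order of levels. miR-29a came first, then miR-29b and miR-29c without a fixed order between them, then miR-29a*, miR-29c*, miR-29b-2* and miR-29b-1*. Only miR-29b and miR-29c overlapped as neighbours in that order: miR-29b was the higher in wild-type replicates 2 and 3 and Adar2-/- replicate 1, and miR-29c in the other 3 libraries. The number of reads does not scale with the length of a mature miRNA. Size selection, ligation and amplification can still favour some sequences, so the order is one of reads.

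None of the 399 miRNAs passed the edgeR test at an adjusted p of 0.05 (0%), and so none of the 6 tested miR-29 rows did. At an unadjusted p under 0.05 there were 13 of 399 (3.26%), of which 1 was a miR-29 row, miR-29c. DESeq2 called 1 of 399 miRNAs, which was no miR-29 row. The genotypes did not overlap in RPM for 23 of 399 miRNAs (5.76%) and for 0 of the 6 miR-29 rows. The same direction in all 3 replicate numbers together with a mean ratio of at least 1.3-fold was met by 39 of 399 (9.77%) and again by 0 of 6. miR-29b kept 1 direction but had a mean ratio of 1.24. Another pattern, lower in Adar2-/- in replicate 1 and higher in replicates 2 and 3, was shared by miR-29a, miR-29a* and miR-29c, 3 of 6, and by 141 of all 399 (35.3%). Positive log2 fold changes were found for 5 of the 6 tested miR-29 rows and for 201 of all 399 miRNAs. The 5 include miR-29a* (0.08) and miR-29c* (0.02), whose sign turned in 2 and 4 of 16 alternative settings. The median log2 fold change was 0.20 over the tested miR-29 rows and 0.00 over all 399.

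**Figure D2:**
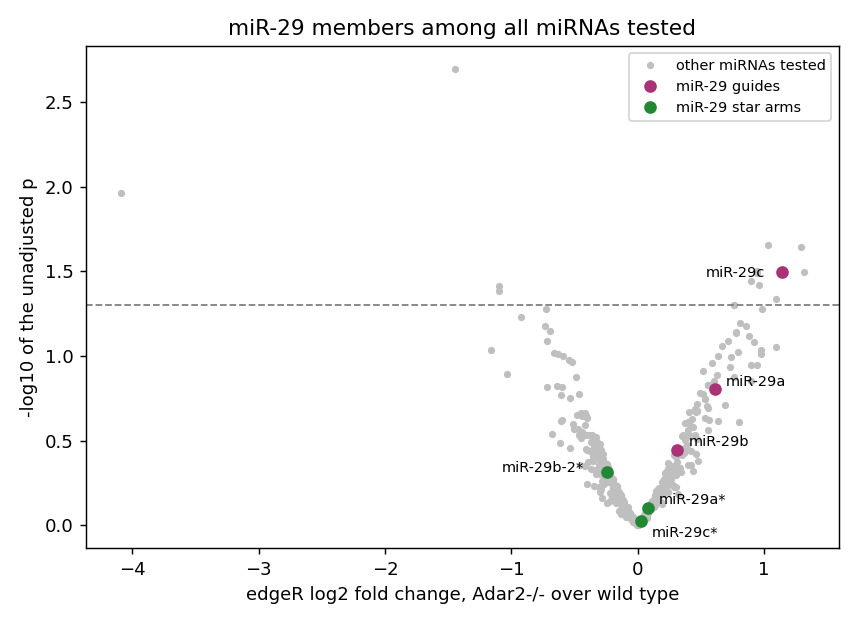
edgeR log2 fold change of Adar2-/- over wild type (x axis) against -log10 of the unadjusted p (y axis) for the 399 tested miRNAs, with the miR-29 guides in purple, the star arms in green and a dashed line at an unadjusted p of 0.05. miR-29c lies above the line at 1.14 and miR-29a below it at 0.61, while the star arms miR-29a* and miR-29c* lie at 0.08 and 0.02.

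The contribution of the 2 clusters was compared next, as a ratio of reads within each library, which needs no scaling between libraries. The reads that mark the 29a/29b-1 cluster exceeded those of the 29b-2/29c cluster 10.9-, 9.04- and 13.7-fold in wild-type replicates 1, 2 and 3, and 10.3-, 8.14- and 7.32-fold in Adar2-/- replicates 1, 2 and 3. The ratios of the genotypes overlapped, with the lowest in Adar2-/- replicates 2 and 3 and the highest in wild-type replicate 3. The mean log2 ratio was 3.46 ± 0.30 in wild type and 3.09 ± 0.25 in Adar2-/- (SD, n = 3 each). The gap of -0.38 between them gave p = 0.2 in a two-sided exact permutation test (adjusted p = 0.5 over the 5 ratios tested). The gap was -0.22 without wild-type replicate 3 and -0.12 without both libraries of replicate 3. Of the reads that mark either cluster, which leave out miR-29b, the 29b-2/29c cluster held 8.43%, 9.96% and 6.80% in wild type and 8.88%, 10.9% and 12.0% in Adar2-/-, with 95% Wilson intervals no wider than ±0.104 percentage points.

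The level of each cluster followed its guide. The 29a/29b-1 reads summed to 17799 ± 4388 RPM in wild type and 27060 ± 12504 RPM in Adar2-/-, and the 29b-2/29c reads to 1594 ± 297 RPM and 3374 ± 2024 RPM (SD, n = 3 each). These sums were almost wholly miR-29a and miR-29c. The ratio of miR-29a to miR-29c was accordingly close to the cluster ratio, 11.4, 9.48 and 14.7 in wild type and 10.8, 8.35 and 7.41 in Adar2-/-. On the log2 scale the genotypes differed by -0.42 (p = 0.2 and adjusted p = 0.5, two-sided exact permutation test). Without wild-type replicate 3 they differed by -0.25, and without both libraries of replicate 3 by -0.13.

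Counted from the star arms alone, the cluster ratio was much smaller and differed less. The 29a/29b-1 star arms exceeded the 29b-2/29c star arms 2.33-, 2.70- and 2.25-fold in wild type and 2.35-, 2.81- and 2.55-fold in Adar2-/-. The log2 difference between genotypes was 0.09, of the opposite sign to that of all cluster reads. The range of this star-arm cluster ratio over the 6 libraries, 2.25 to 2.81, did not overlap that of all cluster reads, 7.32 to 13.7. miR-29a* exceeded miR-29c* by 2.88- to 3.68-fold.

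The star arms of Mir29b-1 and Mir29b-2 are the products that separate the 2 sources of miR-29b. They differ at 2 of 21 aligned bases and the mapping allowed mismatches, so a read with changed bases could be counted for the wrong arm. How often this happened was not tested. miR-29b-1* made up 32.8% (95% Wilson interval 29.6% to 36.3%), 6.96% (5.07% to 9.49%) and 15.1% (12.7% to 17.8%) of both star arms in wild-type replicates 1, 2 and 3. In Adar2-/- replicates 1, 2 and 3 it made up 21.0% (17.8% to 24.7%), 13.5% (11.3% to 16.2%) and 10.8% (8.63% to 13.4%). Wild-type replicates 1 and 2 held the highest and the lowest share, and their intervals did not overlap. The log2 ratio of miR-29b-1* to miR-29b-2* was -2.42 ± 1.36 in wild type and -2.54 ± 0.58 in Adar2-/- (SD, n = 3 each; two-sided exact permutation test, p = 0.9, adjusted p = 0.9). Its difference of -0.12 turned to 0.57 without wild-type replicate 1.

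**Figure D3:**
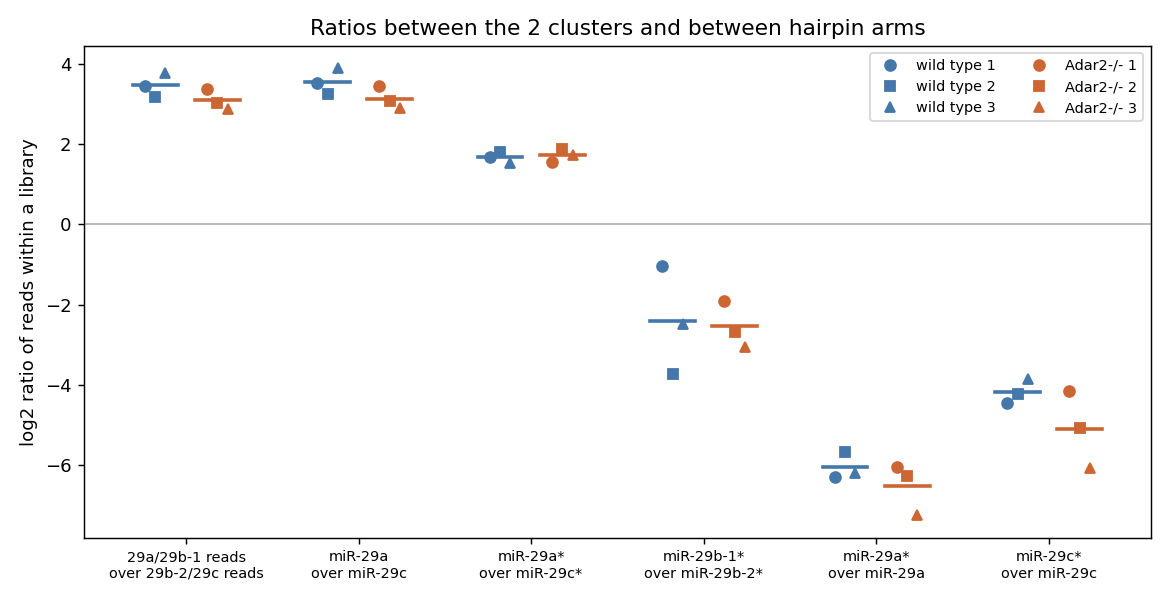
log2 ratios of reads within each library (y axis) between the clusters, guides, star arms and hairpin arms (x axis), wild type in blue and Adar2-/- in orange, symbols by replicate number and bars at the mean of 3 libraries. The genotypes overlap in every ratio, and the miR-29c* to miR-29c ratio is lowest in Adar2-/- replicates 2 and 3 (-5.08 and -6.08).

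The balance of the 2 arms was then compared within the hairpins Mir29a and Mir29c. There were 1.29, 1.95 and 1.36 reads of miR-29a* per 100 reads of miR-29a in wild type and 1.51, 1.31 and 0.657 in Adar2-/-. Per 100 reads of miR-29c there were 4.58, 5.30 and 6.96 of miR-29c* in wild type and 5.59, 2.96 and 1.48 in Adar2-/-. In both hairpins Adar2-/- replicate 3 had the lowest share of the star arm, and Adar2-/- replicate 1 lay within the wild-type range. The mean log2 ratio of miR-29c* to miR-29c was -4.18 ± 0.31 in wild type and -5.11 ± 0.96 in Adar2-/- (SD, n = 3 each). The difference of -0.93 gave p = 0.3 and adjusted p = 0.5 (two-sided exact permutation test). It was -0.44 without Adar2-/- replicate 3 and -1.40 without Adar2-/- replicate 1. For Mir29a it came to -0.47 (p = 0.5 and adjusted p = 0.625, two-sided exact permutation test), and without Adar2-/- replicate 3 it was -0.10. Over the 73 hairpins whose arms are listed as a guide and a star, both tested, the median difference was -0.26, and 21 hairpins had a lower value than Mir29a and 6 a lower value than Mir29c.

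The excess of the guides in Adar2-/- replicate 3 was also set against all miRNAs. Relative to the median of the other 5 libraries, miR-29c stood 3.69-fold, miR-29a 2.10-fold and miR-29b 1.63-fold higher in that library, while its tested star arms stood between 0.889- and 1.01-fold. Of the 399 tested miRNAs, 53 were at least 2-fold higher in Adar2-/- replicate 3 than in the median of the others. The median ratio over all 399 was 1.15. A larger ratio than that of miR-29c was found for 5 miRNAs, than that of miR-29a for 45 and than that of miR-29b for 91. In Adar2-/- replicate 2 the ratio was 1.93 for miR-29c, and 15 miRNAs exceeded it. Adar2-/- replicate 3 was not the only library that stood apart. In wild-type replicate 1, 43 of the 399 miRNAs were at least 2-fold higher than in the median of the others, against 6 to 11 in the remaining libraries.

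The miRNAs outside the family with the pattern most like each of the cluster-specific guides were named by the smallest SD of the log2 ratio over the 6 libraries, as a description. For miR-29a these were let-7g (SD 0.18), miR-485* (SD 0.19) and let-7i (SD 0.19), against a median of 0.59 over the 398 other tested miRNAs. For miR-29c they were miR-410 (SD 0.14), miR-137 (SD 0.16) and miR-335-5p (SD 0.21), against a median of 0.81. The SD between miR-29a and miR-29c was 0.35, which put 52 miRNAs nearer to miR-29a than miR-29c was and 16 nearer to miR-29c than miR-29a was. Each guide was farther from its own star arm, with an SD of 0.52 for miR-29a and 0.81 for miR-29c. These values share the libraries and their depth.

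**Figure D4:**
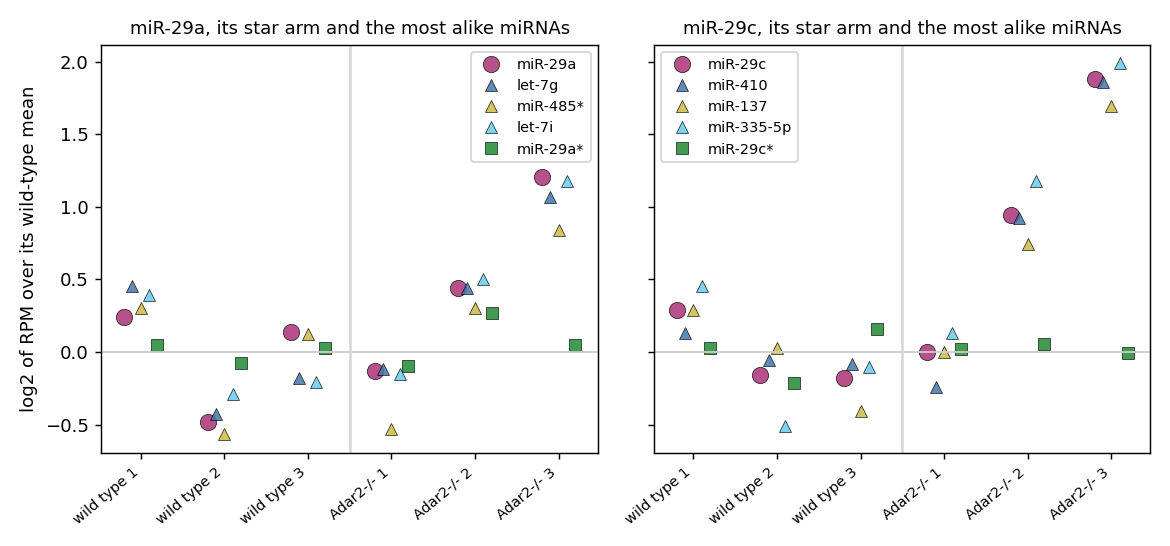
log2 of the RPM over the wild-type mean of the same miRNA (y axis) in the 6 libraries (x axis) for miR-29a (left) and miR-29c (right) as circles, their 3 most alike miRNAs as triangles and their own star arm as squares. In Adar2-/- replicate 3 the guides are above their wild-type mean, while the star arms are near 0. The alike miRNAs are above theirs too, but they were chosen by their likeness over these same 6 libraries.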

How the data were processed

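Small RNA from whole brain, cut from gels at the size of mature miRNAs, was sequenced by the authors on 1 lane per library. Adaptors were trimmed by the authors with Cutadapt. NextGenMap then assigned the reads to miRBase mature sequences, with a few mismatches per read allowed. Hits on the reverse strand were discarded, and a read with equally good hits was weighted across them. The submitters' processing notes name the build mm9. The deposited tables hold raw read counts, without normalization, on 1055 miRNAs, with 1 wild-type and 1 Adar2-/- library in each of 3 tables. How weights became whole numbers is not given in the sources used here. 12 blank lines were dropped. Adar2 itself is not a miRNA and was not analysed here, so the counts hold no check of the genotype labels. Reads without molecular identifiers are not independent molecules, so intervals cover counting error only.

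Genotypes were compared with edgeR 4.0.16 (R 4.3.3, glmQLFit and glmQLFTest, two-sided) on the counts of the 399 miRNAs that reached 100 reads in every library. Genotype was the only term, the library size was the total of mapped miRNA reads, and p-values were adjusted after Benjamini and Hochberg with a threshold of 0.05. An SE given with an edgeR value is the absolute log2 fold change divided by the square root of the F statistic of its test. For single values two-sided exact permutation tests were used. Other settings tried were DESeq2 1.42.0, TMM factors, library totals that leave out the 5 most abundant miRNAs, a minimum of 10 reads or none, a replicate block with and without TMM factors, and fits that drop a library or a replicate number. For miR-29b-1* the last of these were added after the data were seen. Other values came from Python 3.11.15 (pandas 2.3.3, numpy 2.4.6, scipy 1.17.1, matplotlib 3.10.9). The miRNAs named are the 7 miR-29 rows and, for miR-29a and miR-29c, the 3 most alike tested miRNAs, and other miRNAs only where a result turns on them. Members, marker lists and tests were chosen with earlier results of these data known. Hairpins from RefSeq (GRCm38.p6) were placed on NCBIM37 by exact match, with the GENCODE annotation of that build.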

Additional observations from a re-analysis of the deposited data

How the results depend on the processing

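The count of miRNAs past the threshold, 0 with edgeR, was 1 with DESeq2, ranged from 0 to 18 when a library or replicate number was left out, and was 0 with TMM factors, other totals or other minimum counts. The count of miR-29 rows past it ranged from 0 to 1 in the leave-outs, the 1 being miR-29c without replicate 1, and was 0 otherwise. miR-29a, miR-29b and miR-29c kept a positive log2 fold change in all 16 alternatives, from 0.18 to 1.01, from 0.14 to 0.49 and from 0.47 to 1.66. With totals without the 5 most abundant miRNAs their values were 0.49, 0.23 and 0.98. The value of miR-29a* turned to -0.023 without Adar2-/- replicate 2 and -0.060 without replicate 2. That of miR-29b-2* turned to 0.024 without wild-type replicate 1 and 0.087 without replicate 1. That of miR-29c* turned to -0.019 with totals without the 5 most abundant miRNAs, -0.0064 with DESeq2, -0.073 without wild-type replicate 2 and -0.090 without replicate 2. That of miR-29b-1*, in the fit with at least 10 reads, ranged from -1.45 to 0.43 over the leave-outs, which were chosen after seeing the data, and was above 0 without wild-type replicate 1 (0.43) and without replicate 1 (0.15). The difference in the log2 ratio of miR-29b-1* to miR-29b-2* ranged from -0.78 to 0.57 over the leave-outs, with 0.57 without wild-type replicate 1, 0.13 without Adar2-/- replicate 3, 0.25 without replicate 1 and 0.094 without replicate 3. The genotype difference in the ratio of miR-29a to miR-29c ranged from -0.59 to -0.13 in the leave-outs. That in the cluster ratio ranged from -0.53 to -0.12 in them and was 0.086 from star arms only. Over the leave-outs miR-29a* ranged from -0.060 to 0.19, miR-29b-2* from -0.52 to 0.087 and miR-29c* from -0.090 to 0.13. The summed family level differed by 3272 RPM without Adar2-/- replicate 3 to 19735 RPM without replicate 1. The causes were not tested.

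The sources used here do not say that equal replicate numbers mark litters, so the main test had no block. Same-numbered libraries did not deviate together either. The correlations of their deviations from the group means over the tested miRNAs were -0.001, -0.076 and -0.014. With the replicate block 0 miRNAs passed, and the log2 fold change of miR-29c was 0.97 (edgeR, adjusted p = 0.983). The exact sign-flip test with the replicate block cannot go below 0.25 for single values. Depth limited miR-29b-1*, with 36 reads in its lowest library.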
